A study of Danaus plexippus with 48 samples.

Results

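Brains of monarch butterflies kept in short days (SP) were compared with brains of butterflies kept in long days (LP), separately in the hours that were dark in both groups and in the hours that were lit in both. The libraries were taken by the group and hour in their titles. Counted in hours from lights-on (zeitgeber time, ZT), the dark hours were ZT 16, 19 and 22 and the light hours ZT 1, 4 and 7. This gave 24 of the 48 RNA sequencing libraries of the series, 6 of each group in each class of hours. SP butterflies had 10 h of light and 14 h of dark per day, and LP butterflies had 15 h of light and 9 h of dark. Both groups were wild-type Danaus plexippus, descended from parents kept in long days, reared in the laboratory from the egg under their own light cycle at 21 degrees C, and held as adults in that cycle for at least 7 days. Each library was a pool of 3 brains without the pigmented photoreceptor layer of the retina, and both groups shared 1 kind of stranded mRNA kit. Replicate 1 carried the label male in SP and female in LP, and replicate 2 the reverse. The labels say that 16 libraries were mixed for sequencing, which is also the number per group, and do not say which. Sequencing mix and group may therefore coincide, in which case they cannot be told apart.

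Monarchs read day length as a seasonal signal. Long days go with summer reproduction, and shortening days in autumn go with reproductive arrest and migration, with the circadian clock of the brain taking part in measuring the day. Many brain transcripts cycle over the day, some driven by light and others by the clock, so a difference between short and long days can in principle sit at some hours and be missing at others. The comparison by class of hours asks whether that was so. The same clock hour was not the same distance from dusk: ZT 16, 19 and 22 lay 6, 9 and 12 h after lights-off in SP and 1, 4 and 7 h after lights-off in LP.

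The files pair no gene identifier with a name, and 0 of 15130 identifiers matched the RefSeq gene table used here. Genes are given by identifier and position on the scaffolds of the deposited tables, with no role, at most 2 per direction and comparison. Markers of neurons, glia or other cells could not be looked up, so the labelled tissue was not checked against them. Reads in genes, recovered from the confidence limits, ranged from 5.47 M to 9.46 M per library in SP and from 7.44 M to 10.5 M in LP. Levels below are FPKM, a count of fragments per length of transcript and per depth of the library, after median-ratio scaling. Differences are on the scale of log2(scaled FPKM + 1), SP minus LP, which understates changes of genes near 1 FPKM. A gene is called at an adjusted p under 0.05 (limma, Benjamini-Hochberg over 11630 genes).

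The SP libraries were not alike, and this touches every result. In SP libraries the 10 most abundant genes took 8.30% to 12.0% of reads, against 6.99% to 7.64% in LP. Set against the mean of the 2 LP libraries of the same time, replicate 1 of SP at ZT 1 had 2295 genes raised by 2-fold or more and 3089 lowered by as much. Replicate 2 of the same time had 343 and 1103. At ZT 4 the counts were 2220 and 3059 for replicate 1 and 282 and 1146 for replicate 2, and at ZT 7 they were 1990 and 2806 for replicate 1 and 517 and 2073 for replicate 2. The dark hours were uneven as well. At ZT 16 the counts were 1346 and 2482 for replicate 1 and 759 and 1998 for replicate 2, and at ZT 22 they were 1422 and 2541 for replicate 1 and 275 and 1446 for replicate 2. At ZT 19 the order of the replicates was the other way, with 513 and 1869 genes for replicate 1 and 1165 and 2490 for replicate 2. Between the 2 SP libraries of a time, 3079, 2841 and 677 genes were 2-fold or more apart at ZT 1, 4 and 7, and 624, 638 and 1017 at ZT 16, 19 and 22. The median residual SD between the libraries of 1 time was 0.245 in SP and 0.140 in LP in the dark hours, and 0.411 in SP and 0.127 in LP in the light hours. Results are therefore also given without the 3 SP replicate 1 libraries of the light hours, a step chosen after the data were seen. Because replicate 1 of SP was labelled male throughout, sex label and replicate cannot be told apart within SP.

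**Figure D1:**
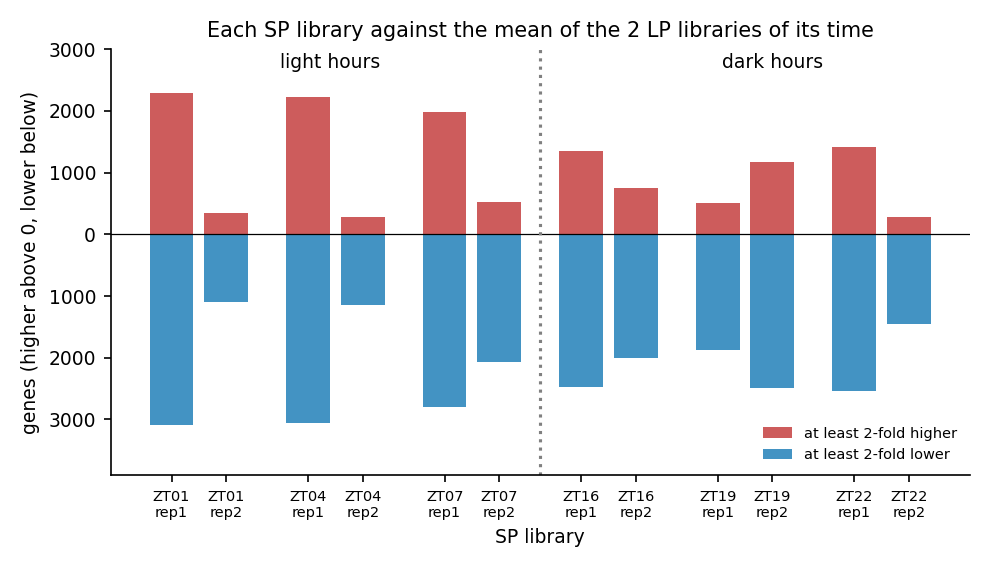
Number of tested genes higher (upward bars) or lower (downward bars) by 2-fold or more in each SP library than the mean of the 2 LP libraries of the same time; horizontal axis, SP library by ZT and replicate. Every SP library has more genes lower than higher, and the 3 replicate 1 libraries of the light hours have the most genes higher, from 1990 to 2295.

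In dark hours most tested genes differed between short and long days. Of 11630 genes, 7942 were called, or 68.3%, with 3896 higher (33.5%) and 4046 lower (34.8%) in SP. Median-ratio scaling sets the middle gene near no difference (median 0.018 in dark hours and 0.0099 in light hours, log2). The near-even split of rises and falls in both classes therefore follows in part from the scaling. With quantile normalization 58.4% of calls were higher in dark hours and 57.7% in light hours. Large differences were mostly falls: 576 called genes were at least 2-fold higher (4.95%) and 2062 were at least 2-fold lower (17.7%), and past 4-fold the counts were 6 and 554. The direction was the same at ZT 16, 19 and 22 for 7875 of the 7942 genes. All 6 SP libraries lay above all 6 LP libraries for 3039 genes (26.1%) and below them for 3428 (29.5%). Among the 2062 genes at least 2-fold lower, each of the 6 SP libraries was below the LP mean of its time for 2032, and was at least 2-fold below it for 1128. Among the 576 at least 2-fold higher, these counts were 554 and 53. Both sets were picked by size in these same libraries, so their shared direction adds no support.

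In light hours most tested genes differed as well. Of the 11630 genes, 8418 were called (72.4%), with 4173 higher (35.9%) and 4245 lower (36.5%) in SP. At least 2-fold differences were again mostly falls, with 931 called genes higher (8.01%) and 2233 lower (19.2%), and past 4-fold there were 25 and 611. The direction was the same at ZT 1, 4 and 7 for 8349 of the 8418, a count that again comes from the differences behind the calls. All 6 SP libraries lay above all 6 LP libraries for 2879 genes (24.8%) and below them for 3259 (28.0%). Large rises rested on few libraries here: of the 931 genes at least 2-fold higher, 894 were above the LP mean in each SP library but 36 were at least 2-fold above it in each. Of the 2233 at least 2-fold lower these counts were 2174 and 765. Without the 3 SP replicate 1 libraries, 6737 genes were called in light hours, of which 156 were higher and 1307 lower by 2-fold or more. Without SP ZT1 replicate 1 or SP ZT4 replicate 1 alone, the 2-fold higher genes numbered 519 and 516, and without SP ZT1 replicate 2 they numbered 1406. In dark hours leaving out SP ZT22 replicate 1 gave 364. The fit gives each gene 1 residual spread for both classes of hours, so light and dark differences share an SE. With each class fitted alone, 7664 genes were called in light hours and 8242 in dark hours. With library weights 7152 and 8311 were called. Which class had more calls therefore depended on how the spread was fitted.

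Pools of 1 sex label were also fitted alone, a step chosen after the data were seen. These fits compared 3 SP with 3 LP libraries in each class of hours, with the 3 times taken as replicates. In dark hours 7370 genes were called among pools labelled female and 8027 among pools labelled male. In light hours 6411 and 8933 were called, with 195 of the female and 2053 of the male calls at least 2-fold higher in SP. In SP all male labels are on replicate 1, and what moved these counts was not tested.

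Called genes were ranked by size of difference, and those named here averaged at least 1 FPKM, with a value above 0 in all 24 libraries, at least 10 reads on average and 1 direction at all 3 times, so larger fitted values of sparser genes were left aside. By this rule the largest falls were the same pair of genes in dark and in light. DPOGS208405 (scaffold DPSCF300241, 20129 to 23710) had a lowest, median and highest level of 1.18, 2.01 and 5.01 FPKM in SP in dark hours, against 39.6, 78.3 and 134 FPKM in LP. In light hours its levels were 0.60, 1.60 and 5.32 FPKM in SP, against 72.2, 80.9 and 106 FPKM in LP. No SP library came near the LP libraries in either class. The log2 difference was -4.56 ± 0.35 in dark hours (SE, limma adjusted p = 6.45e-07) and -4.78 ± 0.35 in light hours (adjusted p = 4.94e-07). The exact two-sided permutation test of 6 libraries against 6 gave 0.00216 in both classes, the smallest p it allows. Every gene without overlap gets that p, and this gene was picked for its size in the same libraries. The permutation p therefore adds no support. Within SP the replicates differed most at ZT 1 and ZT 4: at ZT 1 it had 0.60 FPKM in replicate 1 and 5.32 in replicate 2, and at ZT 4 it had 0.93 and 5.0 FPKM.

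DPOGS213766 (DPSCF300212, 103776 to 114923) had 5.64, 9.16 and 14.3 FPKM in SP in dark hours as lowest, median and highest level, against 221, 291 and 345 FPKM in LP. In light hours it had 4.97, 12.3 and 24.2 FPKM in SP, against 176, 236 and 255 FPKM in LP. Here too the groups were far from overlapping in both classes. The log2 difference was -4.76 ± 0.37 in dark hours (limma adjusted p = 7.55e-07) and -4.18 ± 0.37 in light hours (adjusted p = 2.21e-06). The difference between the classes, -0.58 ± 0.53, was not called (limma adjusted p = 1).

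Among the largest rises the first gene was shared by both classes and the second was not. DPOGS203061 (DPSCF300392, 17 to 886) came first in both, with 27.5, 86.5 and 702 FPKM in SP in dark hours against 7.05, 10.3 and 13.6 FPKM in LP. In light hours it had 17.1, 124 and 468 FPKM in SP, against 6.08, 11.5 and 15.4 FPKM in LP. All SP libraries were above all LP libraries, but SP libraries differed widely from each other: at ZT 22 replicate 1 had 702 FPKM and replicate 2 had 104. The log2 difference was 3.17 ± 0.59 in dark hours (limma adjusted p = 0.000331) and 3.29 ± 0.59 in light hours (adjusted p = 0.000214). Among pools labelled female alone the dark difference was 2.00 and was not called (limma adjusted p = 0.0553).

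DPOGS210783 (DPSCF301335, 3064 to 3484) was second in light hours, with 31.5, 253 and 503 FPKM in SP against 10.6, 24.6 and 50.2 FPKM in LP. Its 3 highest SP values, 432, 503 and 387 FPKM, were the replicate 1 libraries of ZT 1, 4 and 7, and the lowest, 31.5 FPKM at ZT 4 in replicate 2, lay within the LP range. In dark hours the SP levels were 67.7, 168 and 193 FPKM, against 15.0, 25.5 and 61.9 FPKM in LP, with no overlap. The log2 difference was 2.44 ± 0.61 in dark hours (limma adjusted p = 0.00284) and 2.74 ± 0.61 in light hours (adjusted p = 0.00113). In pools labelled female alone the light difference was 1.37 (adjusted p = 0.116). The LP levels of this gene rested on a mean of 12.6 reads per library in dark hours and 11.8 in light hours.

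DPOGS215214 (DPSCF300143, 225407 to 225762) was second among the rises of the dark hours, with 665, 1056 and 3576 FPKM in SP against 58.4, 131 and 672 FPKM in LP. The lowest SP library, at ZT 19, lay just under the highest LP library, at ZT 22. In light hours it had 34.0, 1625 and 2783 FPKM in SP, against 31.2, 483 and 1039 FPKM in LP, so that the groups overlapped. These levels rested on few reads in some libraries. LP in dark hours averaged 34.4 reads per library, with a lowest of 7.85. In light hours the lowest library had 3.13 reads in SP and 3.16 in LP. Its log2 difference was 3.05 ± 1.10 in dark hours (limma adjusted p = 0.0234) and 1.98 ± 1.10 in light hours, where it was not called (adjusted p = 0.117). The difference between these, 1.06 ± 1.55, was within its error, so the call in 1 class alone does not set the classes apart. Leaving out LP ZT19 replicate 2, LP ZT22 replicate 2, SP ZT16 replicate 2 or SP ZT22 replicate 1 ended the dark call, at limma adjusted p from 0.0568 to 0.0759. In pools labelled female alone the dark difference was 2.17 (limma adjusted p = 0.265).

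**Figure D2:**
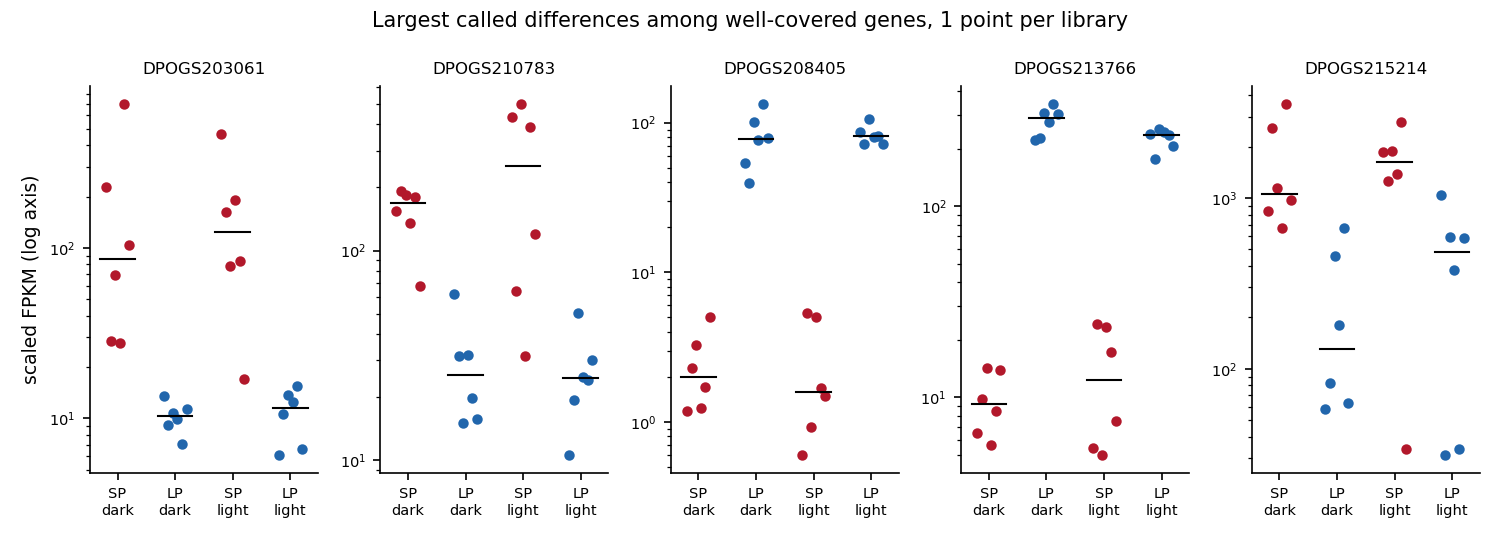
Scaled FPKM (log axis, a separate scale per panel) of the 5 genes named for the largest called differences, 1 point per library with the median as a line, for SP and LP in dark and in light hours (6 libraries each). The panels of DPOGS208405 and DPOGS213766 show SP far below LP in both classes, while SP points lie mostly above LP for the other 3, overlapping LP in light hours for DPOGS210783 and in both classes for DPOGS215214.

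The SP minus LP differences of dark and light hours followed each other closely across genes. The classes use different libraries, and 7338 of the 11630 tested genes were called in both: 3550 higher and 3786 lower in SP in both, and 2 in opposite directions. The genes called in both in 1 direction were 92.4% of the dark calls and 87.1% of the light calls. Of the 604 genes called in dark hours alone, 563 had the same sign in light hours, and of the 1080 called in light hours alone, 1033 had the same sign in dark hours. Over all tested genes 7.23% had opposite signs in the 2 classes, so these counts are near the share of all genes. At least 2-fold differences were shared by 489 higher and 1940 lower genes of the 11630. All 12 SP libraries lay above all 12 LP libraries for 2269 genes (19.5%) and below them for 2826 (24.3%). Of the 11630 tested genes, 711 were at least 2-fold lower, but 12 at least 2-fold higher, in each of the 12 SP libraries. Across the 11630 genes the differences of the 2 classes correlated at r = 0.953, given as a description since genes are not independent and the libraries share a scaling. Among genes called in both, the median size was 0.82 in dark hours and 0.89 in light hours (log2).

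**Figure D3:**
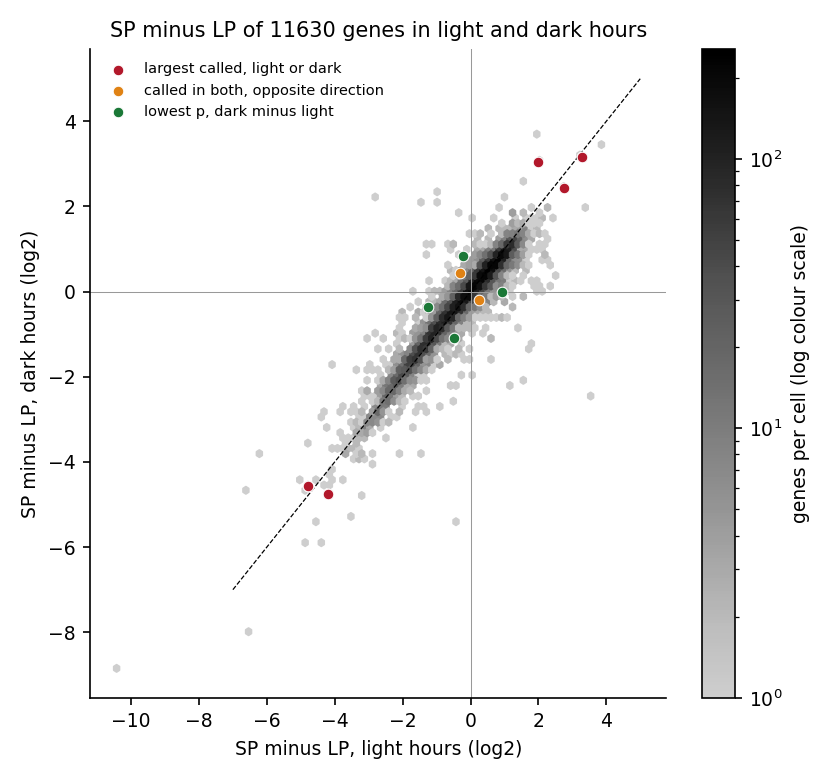
SP minus LP difference (log2) of each of 11630 tested genes in light hours (horizontal) and dark hours (vertical); shade gives the number of genes per cell, the dashed line is equality, and coloured points are the genes named in the text. The cloud follows the line of equality (r = 0.953), with more genes far below 0 than far above it.

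The difference itself was tested gene by gene, as the dark SP minus LP difference minus the light one. None was called: 0 of 11630 genes (0.0%) by limma, with 252 at an unadjusted p under 0.05 (2.17% of genes), a lowest adjusted p of 0.163, and 0 by voom on recovered reads. That share is smaller than a threshold of 0.05 would give on average with no difference in any gene. These p-values may therefore run high, and differences may have been missed. The median size of this difference was 0.13, and its 95% interval reached a median of 0.49 to each side. For 9368 genes (80.6%) the interval lay within a 2-fold change either way and for 3787 (32.6%) within a change of 0.5 in log2. For the remaining genes a difference of 0.5 or more between dark and light hours lies inside the interval. Without the 3 SP replicate 1 libraries of the light hours 0 genes were called as well. Leaving out any 1 of the 6 LP libraries of the light hours, SP ZT1 replicate 2 or SP ZT16 replicate 1 gave 1 or 2 genes, and leaving out any other library gave 0. Allowing SP minus LP to differ among all 6 times (an F test with 5 degrees of freedom, chosen after the data were seen) also called 0 genes, with 145 at an unadjusted p under 0.05 and a lowest limma adjusted p of 0.179. The 145 genes too are a smaller share than that threshold would give with no difference, so the same limit holds.

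Single times were also compared, with no test. With 2 libraries against 2, genes higher and lower in SP by 2-fold or more numbered 1089 and 2235 at ZT 1, 937 and 2247 at ZT 4, and 1201 and 2424 at ZT 7. In the dark they numbered 918 and 2211 at ZT 16, 688 and 2159 at ZT 19, and 596 and 1986 at ZT 22. The SP minus LP differences of any 2 times within a class correlated across genes at 0.886 to 0.916 (6 pairs), and those of a dark and a light time at 0.878 to 0.902 (9 pairs). Of the dark hours, ZT 16 had the highest counts in both directions, though its falls were close to those of ZT 19. The 2 SP libraries of ZT 16 themselves had 1346 and 759 rises and 2482 and 1998 falls. What lay behind the order of the times was not tested.

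No gene met the rule for naming on this difference, so those with the lowest p among well-covered genes are given, chosen after their values were seen. DPOGS205462 (DPSCF300166, 137514 to 138355) came nearest to a call. In dark hours it had 2.58, 3.01 and 3.96 FPKM in SP as lowest, median and highest level, against 0.94, 1.22 and 1.82 FPKM in LP. In light hours it had 1.18, 1.45 and 1.84 FPKM in SP, against 1.40, 1.87 and 2.70 FPKM in LP. The groups did not overlap in the dark and overlapped in the light, where SP had the lower median. Its SP minus LP difference was 0.85 ± 0.12 in dark hours (limma adjusted p = 4e-05) and -0.22 ± 0.12 in light hours (adjusted p = 0.104), and the difference between them was 1.07 ± 0.17 (adjusted p = 0.163). At single times it was 1.14, 0.70 and 0.70 at ZT 16, 19 and 22, and -0.15, -0.29 and -0.22 at ZT 1, 4 and 7. It rested on 17.0 reads per library, and it was called under 3 of 43 alternatives: without LP ZT1 replicate 2 (1.15, limma adjusted p = 0.0295), with the 3 times as replicates (adjusted p = 0.0123) and with no filter on low levels (adjusted p = 0.0472).

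DPOGS204644 (DPSCF300462, 48480 to 60775) was called lower in SP in both classes, with the larger difference in the light. Its levels in dark hours were 18.0, 54.5 and 93.9 FPKM in SP, against 29.8, 68.5 and 109 FPKM in LP. In light hours they were 25.0, 47.5 and 87.4 FPKM in SP, against 65.2, 122 and 151 FPKM in LP. Within each group the level at ZT 16 was the lowest or near it and that at ZT 22 was higher, so the ranges also hold the time of day, and the groups overlapped in both classes. The exact two-sided permutation test, which leaves time out, gave 0.459 in dark hours and 0.00866 in light hours. The SP minus LP difference was -0.37 ± 0.13 in dark hours (limma adjusted p = 0.0205) and -1.25 ± 0.13 in light hours (adjusted p = 6.75e-06), which differ by 0.88 ± 0.18 (adjusted p = 1, unadjusted p = 0.000273).

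Differences below 0 between the classes were led by 2 genes of low level. DPOGS208155 (DPSCF300058, 29988 to 39426) had 0.44, 0.68 and 0.88 FPKM in SP in dark hours, against 2.09, 2.47 and 3.11 FPKM in LP, and 0.98, 1.23 and 1.46 FPKM in SP in light hours, against 1.66, 2.20 and 2.38 FPKM in LP. The groups did not overlap in either class, and the gap was wider in the dark, with differences of -1.08 ± 0.10 in dark hours and -0.48 ± 0.10 in light hours (limma adjusted p = 2.67e-06 and 0.000638) and -0.60 ± 0.14 between them (adjusted p = 1, unadjusted p = 0.000801). DPOGS208742 (DPSCF300043, 390823 to 400584) had 1.39, 1.78 and 2.67 FPKM in SP in dark hours, against 1.19, 1.95 and 2.42 FPKM in LP, with a difference of 0.00 ± 0.16 (limma adjusted p = 1). In light hours it had 2.47, 3.03 and 5.40 FPKM in SP, against 0.55, 1.46 and 2.05 FPKM in LP, a difference of 0.92 ± 0.16 (limma adjusted p = 0.000152) with no overlap. Its dark minus light difference was -0.92 ± 0.22 (adjusted p = 1, unadjusted p = 0.000925).

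The 2 genes called in opposite directions both had small differences, and are named after their values were seen. DPOGS209874 did not have 1 sign at the 3 light times, nor DPOGS213654 at the 3 dark times, which the rule asks of both classes. DPOGS209874 (DPSCF300302, 100074 to 107938) had 99.7, 174 and 185 FPKM in SP in dark hours, against 78.6, 115 and 162 FPKM in LP, and 51.0, 107 and 162 FPKM in SP in light hours, against 88.3, 130 and 164 FPKM in LP. Its difference was 0.43 ± 0.13 in dark hours (limma adjusted p = 0.0107) and -0.32 ± 0.13 in light hours (adjusted p = 0.0409), where ZT 1 went the other way at 0.19. The light call was lost under 14 of 44 alternatives, at limma adjusted p up to 0.967, and the dark call under 4. Leaving out any 1 of SP ZT1, ZT4 or ZT7 replicate 1, LP ZT1, ZT4 or ZT7 replicate 2, or LP ZT4 replicate 1 ended the light call, at adjusted p from 0.0561 to 0.148. DPOGS213654 (DPSCF300165, 235159 to 244309) had 15.8, 18.9 and 19.2 FPKM in SP in dark hours, against 16.6, 20.8 and 25.3 FPKM in LP, and 19.3, 20.9 and 23.6 FPKM in SP in light hours, against 15.3, 18.2 and 19.7 FPKM in LP. Its differences were -0.20 ± 0.08 in dark hours (limma adjusted p = 0.0462) and 0.24 ± 0.08 in light hours (adjusted p = 0.0174). The dark call was lost under 25 of 44 alternatives, among them leaving out any of 16 of the 24 libraries (limma adjusted p from 0.0525 to 0.147), and the light call under 5, among them leaving out LP ZT4 replicate 1 (adjusted p = 0.0533). In 2 of these 25, quantile normalization and removal of the length trend, the dark difference turned to 0.01 and 0.15. The groups of both genes overlapped in both classes.

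**Figure D4:**
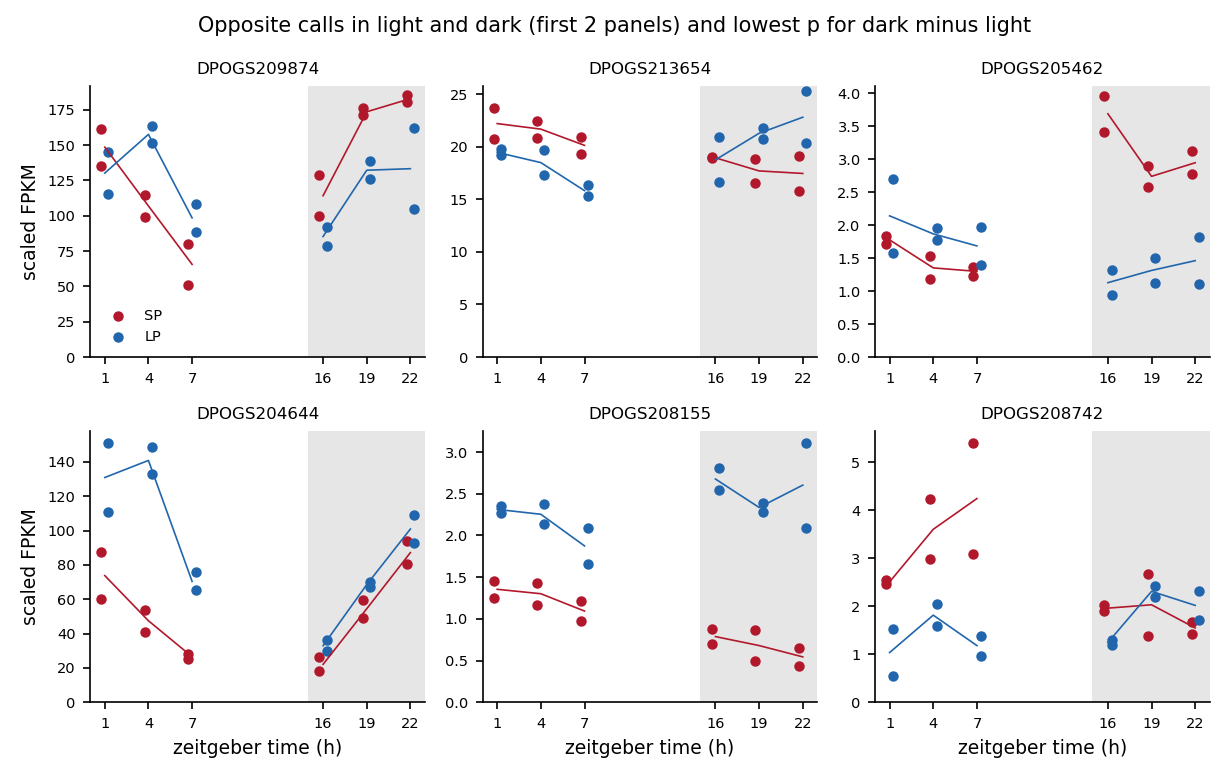
Scaled FPKM against zeitgeber time (h) for 6 genes, SP and LP libraries as points (2 per time) with lines through the means of each class of hours; grey marks the hours dark in both groups. DPOGS205462 has SP above LP in the dark at every time, by 0.70 to 1.14 in log2, and SP means below LP in the light.

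The direction of the difference varied with the size of the gene's locus, alike in both classes. Loci were cut into 10 equal groups of 1163 genes by their span from start to end on the scaffold. In the longest, with a median span of 20699 bases, the median SP minus LP difference was -0.76 in dark hours and -0.78 in light hours. There 70.7% of genes were called lower and 7.39% higher in the dark, and 69.5% and 10.3% in the light. Over all tested genes the shares were 34.8% lower and 33.5% higher in the dark, and 36.5% and 35.9% in the light. In the second shortest, with a median span of 863 bases, the median difference was 0.36 in dark hours and 0.35 in light hours, and 48% of genes were called higher in dark hours and 48.8% in light hours. The dark minus light difference did not follow span, with a Spearman rho across genes of -0.023, beside -0.325 for the dark and -0.297 for the light difference. Genes called at least 2-fold lower had a median span of 6604 bases in dark hours and 6314 in light hours, and those at least 2-fold higher had 1206 and 1472, against 3430 over all tested genes. With each library's trend with span removed, 7792 genes were called in dark hours and 8379 in light hours. Of these, 1690 and 1861 were at least 2-fold lower, against 2062 and 2233 in the main fit. At least 2-fold higher were 547 and 896, against 576 and 931. What part span has in the differences was not tested.

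Level moved with the difference as well. In the 1163 genes with the highest mean FPKM (median 273) the median difference was 0.50 in dark hours and 0.60 in light hours, and 58.7% and 63.2% of them were called higher in SP, beside 33.5% and 35.9% of all tested genes. Genes of middle level were lower instead: in the third of these groups from the bottom (median 7.14 FPKM) the median was -0.24 in dark hours and -0.30 in light hours. The lowest group, with a median of 0.97 FPKM, had medians of 0.06 in dark hours and 0.07 in light hours. The share of reads taken by the 10 most abundant genes also differed, averaging 9.83% ± 1.29 over 12 SP libraries and 7.31% ± 0.19 over 12 LP libraries (SD), and its part in this was not tested.

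**Figure D5:**
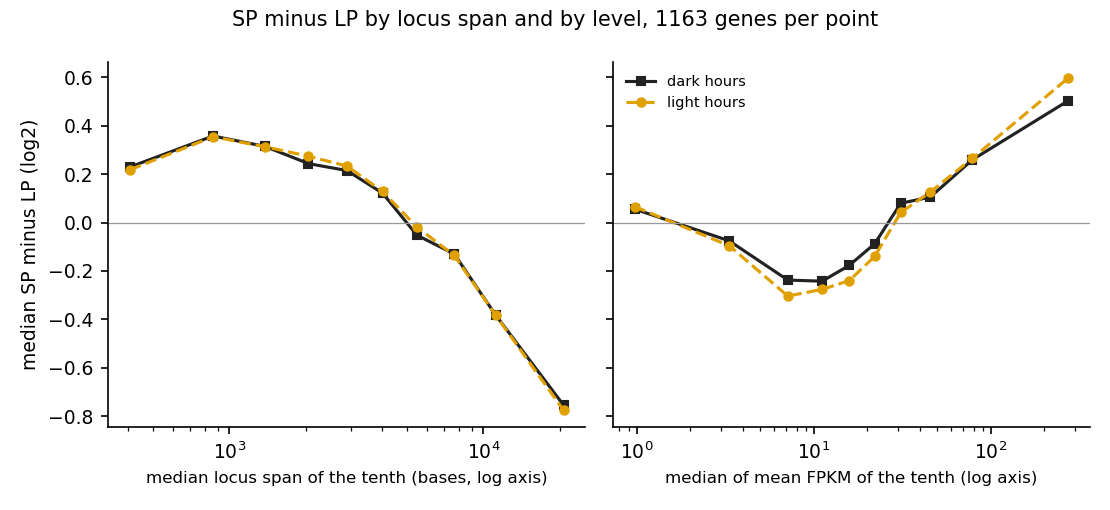
Median SP minus LP difference (log2) in dark and in light hours for 10 groups of 1163 genes by locus span (left, log axis) and by mean FPKM over the 48 libraries (right, log axis). The lines of both classes run together, falling to -0.76 and -0.78 at the longest loci and reaching 0.50 and 0.60 at the highest levels.

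Stretches of the genome differed in the same way in both classes. Over the 189 scaffolds with at least 20 tested genes, scaffold medians of the difference ran from -1.07 to 0.58 in dark hours and from -1.17 to 0.69 in light hours, and those of the dark minus light difference ran from -0.23 to 0.17. DPSCF300083 had the lowest median in both classes: of its 39 genes, 24 were called lower and 6 higher in dark hours (median -1.07), and 27 and 5 in light hours (median -1.17). Next in the light was DPSCF300095, with 13 of 20 genes lower and a median of -1.0 in dark hours, and 13 lower and a median of -1.09 in light hours. Its genes were long, with a median span of 9480 bases. The genes of DPSCF300080, with a median span of 3616 bases, had median differences of -0.92 in dark hours and -0.91 in light hours. They were not lower throughout: of 26 genes, 16 were called lower and 8 higher in dark hours, and 16 and 9 in light hours. At the other end, DPSCF300256, highest in the light, had 28 of 52 genes higher in dark hours (median 0.46) and 33 in light hours (median 0.69). The scaffold medians are descriptions, with no test. Over all tested genes, 34.8% were called lower and 33.5% higher in dark hours, and 36.5% lower and 35.9% higher in light hours.

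Few genes were listed at 0 in 1 group alone. Of the 15130 genes listed, 11 stood at 0 in all 6 SP libraries and above 0 in all 6 LP libraries in dark hours, and 8 did so in light hours. Their reads, averaged over the LP libraries, were at most 8.79 in dark hours and 5.67 in light hours. The reverse occurred for 0 genes in either class. At 12 libraries against 12, 3 genes were listed at 0 throughout SP, on an LP mean of at most 4.67 reads. At this depth a lack in SP cannot be told from a low level.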

How the data were processed

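The authors deposited 1 table of FPKM with confidence limits per library. Per the submitters' processing notes, CASAVA 1.8.2, TopHat2 and Cufflinks were used. No source used here gives the genome build. Tables were joined by identifier. FPKM were divided by the median ratio over the 10595 genes above 0 in all 48 libraries (factors 0.908 to 1.20 in the 24 libraries compared). The 11630 genes whose deposited FPKM averaged at least 0.5 across all 48 libraries were tested. Values log2(scaled FPKM + 1) were fitted with limma 3.58.1 (trend, robust) in R 4.3.3, with a mean for each of 12 combinations of group and time. Joins and plots used Python 3.11.15, pandas 2.3.3 and matplotlib 3.10.9. The fit was run on simulated data with independent noise and 1 spread per gene for all libraries. The SP libraries were more uneven than that, so the simulation does not check the fit for such libraries.

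Named genes were called, had a mean FPKM of 1 or more, no 0 in the 24 libraries, 10 or more recovered reads and 1 direction at all 3 times, ranked by size. Reads were recovered as (2 × FPKM / (upper limit − FPKM)) squared. Of values under 30 reads, 83.0% to 85.0% fell within 0.05 of whole reads, so no count test was run, and voom on these reads was an alternative. Pools are separate samples of each time. The 2 pools of a group and time always carried opposite sex labels and replicate numbers. The p-values therefore measure the spread between such pools, which includes any difference between the labels. The planned gene and cell marker lists were not run, for want of names. The libraries, tests and rules were chosen with earlier results of these data known.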

Additional observations from a re-analysis of the deposited data

Results flagged for a closer look

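In groups of 6 libraries, 3 of 52 sets of values held a library set far apart (levels of named genes on the log2(scaled FPKM + 1) scale, depth and the share of the 10 most abundant genes as they are), its gap to the next library being more than Dixon's critical share of the whole range, and chance gives about 1 in 20. All 3 were levels of genes, and none passed that share on the scale of FPKM itself. For DPOGS215214, SP ZT7 replicate 2 (34.0 FPKM) was the lowest SP library of the light hours, with a gap of 0.817 of the log2 range and 0.443 of the FPKM range. For DPOGS210783, SP ZT22 replicate 2 (67.7 FPKM) was the lowest SP library of the dark hours, with a gap of 0.660 of the log2 range and 0.539 of the FPKM range. For DPOGS208155, LP ZT7 replicate 1 (1.66 FPKM) was the lowest LP library of the light hours, with a gap of 0.632 of the log2 range and 0.604 of the FPKM range.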

How the results depend on the processing

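The counts of genes called in dark hours (7186 to 8519), in light hours (6411 to 8933) and in both in 1 direction (5895 to 7754) stayed within 1.5 times of the values reported under each of 44 alternatives. With 1 library left out they ran from 7186 to 8231, 7706 to 8814 and 6740 to 7604. Shares of calls higher in SP ran from 48.2% to 58.4% in dark hours and from 47.6% to 57.7% in light hours. Numbers of called genes at least 2-fold higher in dark hours were 946 with quantile normalization, 947 in pools labelled male alone, and 364 to 834 with 1 library left out. In light hours they were 156 without the 3 SP replicate 1 libraries, 195 in pools labelled female alone, 2053 in pools labelled male alone, and 516 to 1406 with 1 library left out. At least 2-fold lower in light hours were 1307 without the 3 SP replicate 1 libraries, 1324 in pools labelled female alone, and 1864 to 2539 with 1 library left out. The cause of these shifts was not tested.

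The dark minus light difference was called for 3 genes with no filter, 1 with the 3 times as replicates, 2 in pools labelled female alone, 4 in pools labelled male alone, 0 to 2 with 1 library left out, and 0 under the others. DPOGS205462 was called with no filter, with the 3 times as replicates and without LP ZT1 replicate 2. Opposite calls in dark and light hours numbered 1 with FPKM as deposited, with the 3 times as replicates, without trend and robust options, with library weights, and with the length trend removed. They numbered 0 with quantile normalization, 4 with no filter, 5 without the 3 SP replicate 1 libraries, 24 in pools labelled male alone, and 0 to 6 with 1 library left out. The dark difference of DPOGS213654 turned to 0.0117 with quantile normalization and 0.15 with the length trend removed.

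Replicate numbers did not pair SP with LP pools: the deviations of same-numbered pools correlated at -0.001 to 0.145 over the 6 times, and the sex labels run opposite. With the replicate block 8163 genes were called in dark hours, 8625 in light hours and 0 for the difference. With the sex label as a covariate these counts were 8149, 8571 and 0. Lower depth in SP, and genes under 10 reads (1122 of 11630), limit what small differences could be seen.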
